A study of Mus musculus with 20 samples.

Results

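The comparison described here set the cortex of all mice fed the ketogenic diet (KD) against that of all mice fed the control diet (CD), with both sexes pooled. Members were the 20 libraries of the series, of 20 in all, and none was left out. They were 10 KD and 10 CD libraries, 1 per mouse, taken as such from the diet code of the library titles, in which the CD is written SD. The KD mice were 4 females and 6 males, and the CD mice 5 females and 5 males. All were 22 months old and carried the human APOE4 knock-in allele (Apoe tm1.1(APOE*4)Adiuj on B6(SJL)) in place of mouse Apoe, so that the control mice share this genotype too and no group with another allele was available for comparison. They had eaten their diet for 12 months from the age of 10 months, in equal calories and housed singly. RNA came from a piece of frozen cortex, was depleted of ribosomal RNA and sequenced in 50-bp read pairs.

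A ketogenic diet supplies most calories as fat and very little as carbohydrate. The liver then turns fatty acids into the ketone bodies β-hydroxybutyrate and acetoacetate, which pass into the brain through monocarboxylate transporters and are split to acetyl-CoA in mitochondria. Fatty acids also activate the PPAR nuclear receptors, whose targets serve fat oxidation and ketone synthesis. APOE carries lipids between cells of the brain, mostly from astrocytes, and its E4 form is the strongest common genetic risk for late-onset Alzheimer's disease. The question was which cortical transcripts differed with the diet irrespective of sex, after sex and library series were taken into account.

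Total counts ranged from 12207161 to 29109990 per library (medians 19967209 on the KD and 19356308 on the CD). The library numbers fell into 2 series, with each diet and sex in both, and the deeper series 1 had totals of at least 21015275 where series 2 had at most 17697342. What separates the series is not given. Mouse Apoe was at 1.33 to 3.34 CPM in every mouse, where CPM are counts relative to the total of the library. The sex codes were checked with Xist (at least 319 CPM in females and at most 7.59 CPM in males) and the Y-linked Ddx3y. CD female E228 had 14.0 CPM of Ddx3y, while no other female exceeded 1.64 CPM and all males had 163.5 CPM or more. The pieces of cortex also differed in the marker genes of neighbouring regions. The summed markers of striatal spiny neurons were at 4032 to 6135 CPM in 4 KD mice (females E61, E68 and E207 and male E59), at 2003 CPM in CD female E249, at 1331 CPM in CD male E58 and at 558 to 896 CPM in the other 14. KD female E227 was at 672 CPM, unlike the other KD females. In bulk RNA more cells of a type and more RNA per cell cannot be told apart. Fits with the mean striatal marker score as a covariate, and an added fit without E227, E249 and E59, are given beside some of the results that they moved. Where neither is given, the result was not shown to be stable under them.

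Otof was the 1 gene of 15660 tested that passed the thresholds of the study, an FDR of 0.1 and a 1.5-fold change, and it rose on the KD (0.00639% of the genes tested). The gene encodes otoferlin, a calcium sensor of vesicle release best known from the hair cells of the ear, and lies on chromosome 5 of GRCm38 from 30367062 to 30461932 on the minus strand, with no other annotated gene over it. KD mice had 13.7 CPM at the lowest, 18.9 CPM at the median and 52.5 CPM at the highest. In CD mice the same values were 2.70, 7.56 and 12.1 CPM. Every KD mouse thus lay above every CD mouse, and no other gene of the 15660 separated the diets so completely in either direction. Mean levels were 25.2 ± 13.8 CPM with the KD and 8.12 ± 3.11 CPM with the CD (SD, n = 10 each). On the log2 scale the fold change was 1.57 with a standard error (SE) of 0.26, and the adjusted p was 0.0908 (edgeR quasi-likelihood, Benjamini-Hochberg). Fitted alone, females gave a log2 fold change of 2.003 and males of 1.22, series 1 of 1.74 and series 2 of 1.39. The 3 highest values were those of KD females E61 (52.5 CPM) and E207 (45.8 CPM) and KD male E64 (32.2 CPM). Of these, E61 and E207 were among the 4 mice with high striatal markers and E64 was not, while E59, with the highest striatal markers, had 14.9 CPM. E64 stood apart in other markers, with the highest summed meningeal markers of all mice (605 CPM) and the lowest oligodendrocyte and myelin markers (1824 CPM). The part of the tissue piece in the Otof difference was not tested. A fit that includes the mean striatal marker score gave 1.42 with an adjusted p of 0.320. Otof was higher on the KD under each of the 37 alternative fits (log2 fold change from 1.22 to 2.003) and passed both thresholds in 20. With 1 mouse left out, its adjusted p was from 0.107 to 0.239 without KD mice E61, E64, E68 or E207 or CD mice E58, E62, E66, E67, E228 or E265.

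Just behind it, many genes shared almost the same adjusted p. It was 0.101 for the next one and at most 0.11 for 40 genes, while 530 genes were at or under 0.2 (305 higher and 225 lower on the KD, and 268 of the 530 by at least 1.5-fold). Without adjustment, 2101 genes had a p under 0.05, which is 13.4% of those tested. Of these, 1146 were higher on the KD (7.32% of all genes) and 955 lower (6.1%). The typical difference was small, with a median absolute log2 fold change of 0.10 and a median of 0.0044, and 884 genes differed by at least 1.5-fold. Of all genes tested, 51.2% were higher on the KD. Every count of list members below is to be read beside this share or beside the 7.32% and 6.1%. The following genes are those of smallest p in each direction at a mean of at least 1 CPM, and beyond Otof none of them passed FDR 0.1 in all mice.

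**Figure D1:**
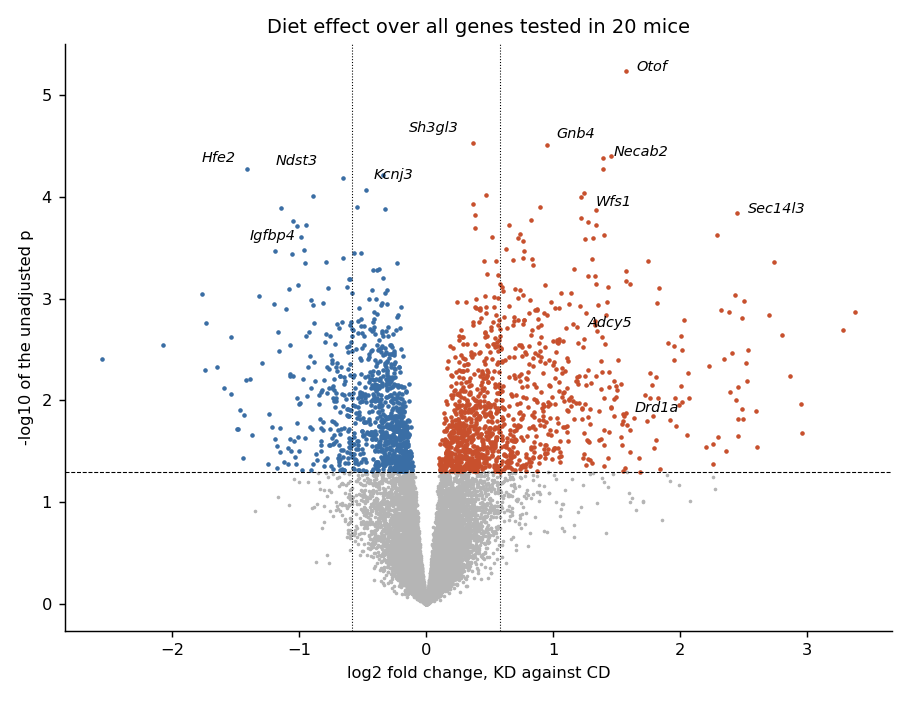
Each point is 1 of the 15660 genes tested, with its log2 fold change between KD and CD mice (x axis) and the negative log10 of its unadjusted p (y axis). Red and blue points are the 1146 higher and 955 lower genes at an unadjusted p under 0.05 (dashed line), dotted lines mark 1.5-fold, and Otof stands alone at the top.

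Several of the 15 genes of smallest p on the higher side act in signalling at synapses and membranes. Gnb4, a G-protein beta subunit (chromosome 3, 32580332 to 32616585), was at 31.3, 45.7 and 60.1 CPM in KD mice (lowest, median and highest) and at 15.6, 19.9 and 48.6 CPM in CD mice. CD female E249 was the 1 CD mouse within the KD range, and the log2 fold change was 0.95 (SE 0.18, adjusted p 0.101). Its size was nearly the same in females (1.01), males (0.90), series 1 (1.04) and series 2 (0.85). Sh3gl3, which encodes the endophilin A3 of endocytosis (chromosome 7, 82173840 to 82307419), was at 35.3, 42.7 and 53.3 CPM on the KD and 28.6, 33.6 and 36.5 CPM on the CD. There 9 of the 10 KD mice lay above the highest CD mouse, although the log2 fold change was only 0.37 (SE 0.07). Necab2, a calcium-binding partner of metabotropic glutamate and adenosine receptors (chromosome 8, 119446719 to 119472640), was at 16.96, 32.5 and 78.1 CPM against 6.19, 13.9 and 21.1 CPM. Of the KD mice 8 were above all CD mice, and the log2 fold change was 1.39 (SE 0.27), at 1.94 in series 1 and 0.82 in series 2.

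Wfs1, the endoplasmic reticulum protein lost in Wolfram syndrome (chromosome 5, 36966104 to 36989205), ranged from 20.9 to 100.01 CPM on the KD (median 43.9 CPM) and from 10.0 to 29.4 CPM on the CD (median 21.8 CPM). Nos1, the neuronal nitric oxide synthase (chromosome 5, 117781032 to 117958840), ranged from 12.0 to 51.6 CPM (median 19.2 CPM) against 3.65 to 15.8 CPM (median 10.98 CPM). In both genes 8 of the 10 KD mice exceeded every CD mouse, with log2 fold changes of 1.25 (SE 0.26) and 1.22 (SE 0.26). Sec14l3, a lipid-transfer protein of the SEC14 family (chromosome 11, 4064841 to 4077736), had the largest log2 fold change of the 15, at 2.45 (SE 0.52), from medians of 6.26 CPM on the KD and 0.775 CPM on the CD. KD male E213, at 0.407 CPM, lay among the CD mice, and CD male E251, at 5.90 CPM, among the KD mice. The other higher genes of smallest p were Zfp503, a zinc-finger repressor of striatal and forebrain development (1.39), Smpdl3b, a membrane phosphodiesterase (1.22), Cntnap3, a contactin-associated adhesion protein (0.90), Dpy19l3, a C-mannosyltransferase (0.47), Nsg2, a neuronal endosomal protein (0.38), Fam110b (0.37), and Ankfn1 with 4932411E22Rik (1.34 and 1.46 on the log2 scale). The annotation gives the last symbol as a synonym of Ankfn1, so that these may be 1 gene counted under 2 names.

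The 15 lower genes of smallest p held secreted proteins, an ion channel subunit and enzymes that modify sugars. Ndst3, an N-deacetylase and N-sulfotransferase of heparan sulfate (chromosome 3, 123526166 to 123690853), was at 24.7, 38.0 and 58.7 CPM in KD mice and at 47.5, 59.8 and 75.8 CPM in CD mice. Of the KD mice 8 lay below every CD mouse, and the log2 fold change was -0.65 (SE 0.13, adjusted p 0.101). It was -1.08 in females and -0.33 in males (unadjusted p 0.00127 for the difference from edgeR's quasi-likelihood test of the interaction, which no gene passed at FDR 0.1). Kcnj3, which encodes the GIRK1 subunit of the G-protein-gated potassium channel (chromosome 2, 55435970 to 55598145), was at 50.2, 77.1 and 92.4 CPM against 82.7, 96.8 and 111 CPM, again with 8 KD mice under all CD mice and a log2 fold change of -0.47 (SE 0.10). Igfbp4, a secreted binding protein of insulin-like growth factors (chromosome 11, 99041244 to 99054392), ranged from 18.5 to 62.4 CPM on the KD (median 40.9 CPM) and from 27.6 to 104 CPM on the CD (median 75.5 CPM), a log2 fold change of -0.95 (SE 0.21).

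Gcnt4, a Golgi N-acetylglucosaminyltransferase (chromosome 13, 96924689 to 96950906), was at medians of 20.8 CPM on the KD and 41.6 CPM on the CD. Vsnl1, a neuronal calcium sensor (chromosome 12, 11325242 to 11436613), was at medians of 301 and 407 CPM. C1ra, a protease that starts the classical complement cascade (chromosome 6, 124512405 to 124523443), was at 1.40 to 4.48 CPM on the KD and 2.76 to 8.63 CPM on the CD. Their log2 fold changes were -1.02, -0.57 and -1.05, with 5, 5 and 6 KD mice below every CD mouse. CD female E249 was the lowest CD mouse in Igfbp4, Gcnt4 and Vsnl1, at 27.6, 22.9 and 281 CPM. Hfe2, the iron-regulating BMP co-receptor hemojuvelin, had the largest log2 fold change of the 15, -1.42 (SE 0.28), at 0.301 to 1.36 CPM on the KD and 0.69 to 3.14 CPM on the CD. The others were Sebox, a homeobox gene (-1.15), Adam18, a metalloprotease-family gene (-1.19), Gpr115, an adhesion receptor now named Adgrf4 (-0.99), Mkx, a homeobox gene (-0.96), Tox, a nuclear HMG-box protein (-0.90), Stard8, a GTPase-activating protein (-0.54), Snx24, a sorting nexin (-0.34), and Mfsd4, a membrane transporter (-0.32 on the log2 scale).

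**Figure D2:**
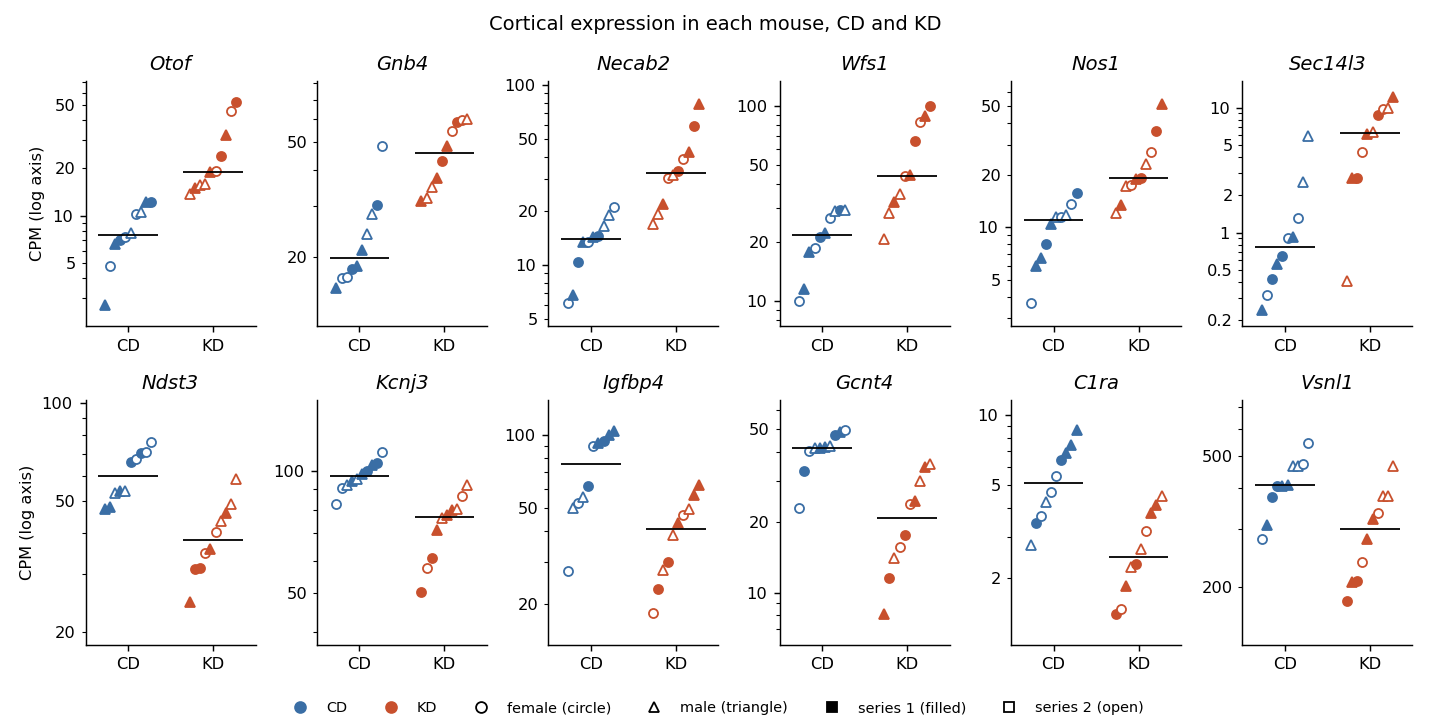
CPM on a log axis in each of the 10 CD (blue) and 10 KD (red) mice for 6 higher and 6 lower genes of small p, with females as circles, males as triangles, series 1 filled and series 2 open, and black lines at the medians. The diets are fully apart in Otof and overlap by 1 or more mice in every other panel.

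Reads of overlapping annotated genes may have been counted for Sh3gl3, Gnb4, Fam110b, Nos1, Ndst3, Kcnj3, Tox, Mfsd4, Gcnt4 and Mkx, which leaves these counts uncertain. The adjusted p of the 30 genes reached at most 0.119. All 15 higher genes were higher in females and in males and in each series, and 13 of them in each of the 4 combinations of sex and series. All 15 lower genes were lower in each of the 4 combinations. The choice by p in all mice favours such genes, and these counts are a description. All 30 had a larger change in series 1 than in series 2, with medians of 1.51 against 0.85 for the higher genes and -1.17 against -0.60 for the lower genes. With this score in the fit the medians were 0.98 and -0.72, each gene kept its direction, and the adjusted p was from 0.320 to 0.385. Without E227, E249 and E59 the medians were 1.38 and -1.10, and 11 of the 15 higher and 11 of the 15 lower genes passed both thresholds. These mice were picked because they lay far from their own diet and sex, so that leaving them out widens the separation by construction.

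To see whether the genes of smallest p share a start-site element, the 250 bases upstream of RefSeq start sites (GRCm38.p6) were searched on both strands for TGACGTCA (the full cAMP response element, or CRE), TGACG (the CRE half-site, which the full element contains), CACGTG (an E-box) and AGGTCA (a nuclear receptor half-site). Of the 30 genes 20 had such a window, and the CRE half-site was in 4 of them and the full CRE in 0. These 4 windows are shown since CREB, the factor that binds CREs, is a subject of the study, and capitals mark a half-site or a nuclear receptor half-site. Dpy19l3 is shown from chr7:35754455-35754704 (minus strand), Sec14l3 from chr11:4064603-4064852 (plus strand), Nos1 from chr5:117866589-117866838 (plus strand) and Ndst3 at its second start site from chr3:123619451-123619700 (minus strand). Both the Nos1 and the Ndst3 window lie inside the gene positions given above, far from the annotated gene start.
Dpy19l3: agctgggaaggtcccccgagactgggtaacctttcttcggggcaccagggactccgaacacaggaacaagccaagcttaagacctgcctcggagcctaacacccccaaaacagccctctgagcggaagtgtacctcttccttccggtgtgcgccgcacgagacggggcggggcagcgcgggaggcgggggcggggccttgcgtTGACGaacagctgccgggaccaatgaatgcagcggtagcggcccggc
Sec14l3: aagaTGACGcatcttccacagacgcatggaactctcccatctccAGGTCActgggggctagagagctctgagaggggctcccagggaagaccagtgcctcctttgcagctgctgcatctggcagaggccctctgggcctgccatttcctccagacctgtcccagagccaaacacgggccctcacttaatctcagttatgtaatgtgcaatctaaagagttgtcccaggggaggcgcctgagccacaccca
Nos1: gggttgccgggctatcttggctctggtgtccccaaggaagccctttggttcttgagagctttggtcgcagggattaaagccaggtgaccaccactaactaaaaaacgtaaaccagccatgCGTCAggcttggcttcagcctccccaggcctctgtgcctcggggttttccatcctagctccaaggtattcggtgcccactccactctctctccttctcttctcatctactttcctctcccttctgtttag
Ndst3: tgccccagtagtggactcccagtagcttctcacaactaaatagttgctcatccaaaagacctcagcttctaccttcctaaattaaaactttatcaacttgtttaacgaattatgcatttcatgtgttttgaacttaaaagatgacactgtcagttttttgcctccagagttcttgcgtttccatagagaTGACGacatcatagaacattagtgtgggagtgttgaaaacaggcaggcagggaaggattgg
Over all 12034 tested genes with a window, 28.8% held the CRE half-site and 2.83% the full CRE. Of the genes higher at an unadjusted p under 0.05 the shares were 23% and 1.18% (848 with a window), and of the lower genes 30.7% and 3.01% (698 with a window). The E-box was in 9.38% of all windows, 7.78% of the higher and 8.02% of the lower genes, and the nuclear receptor half-site in 13.04%, 12.4% and 15.04%. A match of letters is not a binding site, and the shares are given without a test.

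How far the effect was shared between the sexes was read in mice that the other sex does not include. When females and males were fitted separately, 67.4% of all genes had the same sign in both. Of the 668 genes higher in females at an unadjusted p under 0.05, 88.5% were also higher in males, and of the 558 lower in females 89.8% were lower in males. The other way round, 91.6% of the 479 genes higher in males and 87.8% of the 237 lower in males kept their sign in females. Read in the mice that had not chosen them, the median log2 fold change in males was 0.28 for the genes higher in females and -0.18 for those lower in females, and in females 0.49 and -0.44 for the genes chosen in males. Across the 15660 genes, which are not independent and come from the same mice within a sex, Pearson's r between the log2 fold changes of the sexes was 0.57 and Spearman's rank correlation 0.47. Between series 1 and 2, 57.7% of all genes had the same sign (Pearson's r 0.41 and Spearman's rank correlation 0.26), as did 73.8% of the 1376 higher and 79.1% of the 1027 lower genes of series 1. High striatal markers were present in KD mice of both sexes and both series, and their part in this likeness was not tested.

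The interaction of diet and sex passed FDR 0.1 for 0 genes under edgeR's quasi-likelihood test (335 genes, or 2.14%, at an unadjusted p under 0.05), as did that of diet and series (542 genes, or 3.46%). Of all genes tested, 19.2% differed in the same direction in all 4 combinations of sex and series, against 70.5% of the 1146 higher and 72.9% of the 955 lower genes at an unadjusted p under 0.05, a choice that itself favours such genes.

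**Figure D3:**
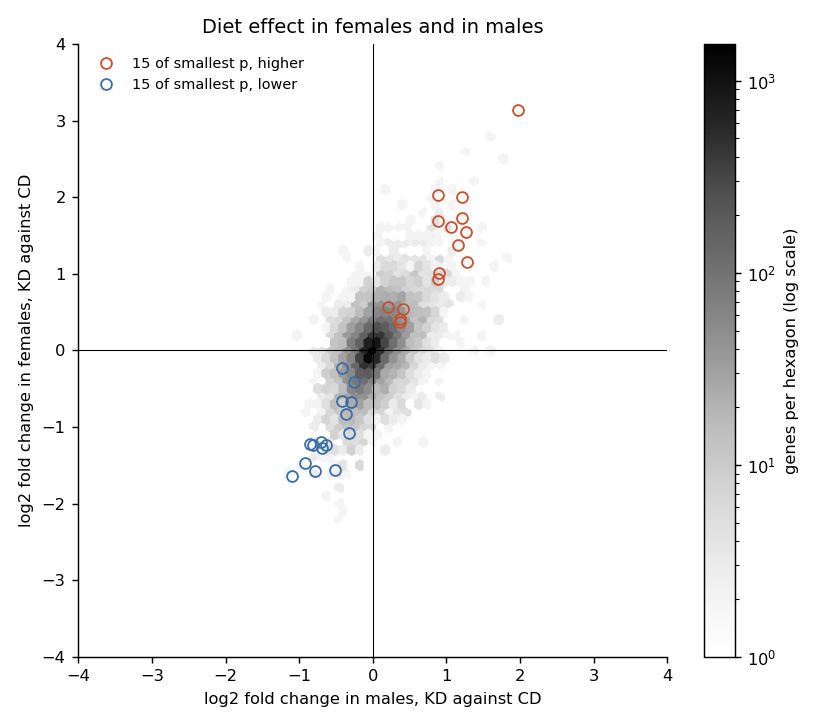
Log2 fold change between KD and CD in males (x axis) and in females (y axis), fitted separately, with the density of the 15660 genes in grey and the 15 higher (red) and 15 lower (blue) genes of smallest p circled. Every circle lies in the quadrant where both sexes have the same sign, and most lie farther from 0 in females.

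Genes of ketone use differed little between the diets in these fasted mice. Of 16 tested genes of ketone body metabolism and transport 12 were higher on the KD, 3 of them at an unadjusted p under 0.05, Acss1 and Acss3 among them, and 2 were lower at that level (Acss2 and Slc16a7). The median log2 fold change was 0.055. Oxct1, the enzyme that commits ketone bodies to oxidation, was at 577 ± 53.8 CPM with the KD and 563 ± 35.4 CPM with the CD (SD, n = 10 each), a log2 fold change of -0.0027 (SE 0.07). Bdh1, which oxidises β-hydroxybutyrate, differed by 0.013 on the log2 scale (SE 0.09), and Slc16a1, the monocarboxylate transporter MCT1, by 0.15 (SE 0.08). The acetyl-CoA synthetases had opposite signs, with Acss1 of the mitochondria at 0.22 and Acss2 of the cytosol at -0.20.

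Of 49 tested genes of fatty acid oxidation and PPAR targets, 38 were higher on the KD (51.2% of all genes were) and 11 lower, with a median of 0.079. The median was 0.155 in females, 0.016 in males, 0.146 in series 1 and 0.043 in series 2. With the striatal score as a covariate 31 were higher and the median was 0.046. At an unadjusted p under 0.05, 6 were higher, namely Cd36 (fatty acid uptake, 1.12), Acaa2 (the mitochondrial thiolase, 0.30), Plin2 (a lipid droplet coat, 0.24), Acot1 (a thioesterase), Acadm (medium-chain acyl-CoA dehydrogenase, 0.18) and Hadha (the trifunctional protein). Pparg, the adipogenic PPAR, was the 1 lower gene, at 5.20 ± 1.996 CPM (SD, n = 10) against 7.37 ± 1.31 CPM (SD, n = 10) and a log2 fold change of -0.63 (SE 0.19, adjusted p 0.165). Of other PPAR targets and fuel sensors, Cpt1a, the gate of mitochondrial fat oxidation, differed by 0.10, Pdk4, which shuts pyruvate out of mitochondria, by 0.12, Angptl4, an inhibitor of lipoprotein lipase, by 0.38 and Txnip, a brake on glucose uptake, by 0.18 on the log2 scale. Their standard errors were 0.07, 0.10, 0.23 and 0.15. None of Bdh1, Oxct1, Slc16a1, Pdk4, Cpt1a, Angptl4 and Txnip passed the two-sided exact permutation test with diet permuted within the 4 combinations of sex and series (12000 arrangements), with p from 0.0978 for Slc16a1 to 0.927 for Oxct1 and from 0.235 to 0.927 after adjustment over 12 genes.

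Glucose and mitochondrial genes showed no shared direction. The 36 genes of glycolysis and pyruvate metabolism had a median of -0.016, with 2 higher and 2 lower at an unadjusted p under 0.05, Pgk1 (phosphoglycerate kinase, -0.16) and Pgam2 (the muscle phosphoglycerate mutase, 0.63) having the smallest p. Of 75 nuclear-encoded subunits of oxidative phosphorylation, 35 were higher and 40 lower, the median was -0.0038, and 0 were past an unadjusted p of 0.05 under edgeR's test. Of 75 cytosolic ribosomal proteins 67 were higher (51.2% of all genes were), by a median of 0.09, and 2 were past that p. Their summed level was 7213 to 9847 CPM on the KD and 6765 to 8847 CPM on the CD, so that the diets overlapped. Rpl3 was the member of smallest p, at 271 ± 25.1 CPM (SD, n = 10) against 239 ± 22.2 CPM (SD, n = 10). With the striatal score as a covariate 67 of the 75 were higher again, and without E227, E249 and E59 59 were.

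Among lipid synthesis genes, 25 of cholesterol biosynthesis had a median of -0.032 and 25 of fatty acid and triglyceride synthesis a median of 0.028 (0.156 in females and -0.044 in males). Dgat2, the last enzyme of triglyceride synthesis, was at 0.38 (adjusted p 0.170) and Elovl2, an elongase of polyunsaturated fatty acids, at 0.26 (adjusted p 0.227), with 5 of these 25 genes higher and 1 lower at an unadjusted p under 0.05.

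Of 35 genes of insulin and IGF signalling 24 were lower and 11 higher, with 3 in each direction at an unadjusted p under 0.05 (7.32% of all genes were higher and 6.1% lower). Beside Igfbp4, the p85α subunit gene Pik3r1 was lower (-0.25, adjusted p 0.179), while Igfbp2, another IGF-binding protein, was at 0.59 and Foxo1, the transcription factor that insulin inhibits, at 0.73 (adjusted p 0.217 and 0.193). Foxo1 was at 19.3 to 36.2 CPM in the KD mice with high striatal markers (E59, E61, E68 and E207). It was at 20.7 CPM in CD female E249 and at most 15.5 CPM in all other mice. Of 35 antioxidant genes and NRF2 targets 28 were higher (51.2% of all genes were), by a median of 0.09. At an unadjusted p under 0.05, 5 were higher and 0 lower (7.32% and 6.1% of all genes). Gpx3, a secreted glutathione peroxidase, was at 0.84 (adjusted p 0.175) and Sod3, the extracellular superoxide dismutase, at 0.48 (adjusted p 0.336). The median of this list was 0.16 in series 1 and -0.010 in series 2. Of 41 heat shock and DnaJ chaperones 21 were higher, and Hspb8, a small heat shock protein of autophagy, had the smallest p (0.51, adjusted p 0.157).

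Genes of cAMP signalling, which ends in the phosphorylation of CREB, went in both directions. Of 59 genes tested, 14 were higher and 6 lower at an unadjusted p under 0.05 (7.32% and 6.1% of all genes), and the median was 0.018. Of the 14, 5 are markers of striatal neurons too (Drd1a, Adcy5, Ppp1r1b, Pde10a and Gnal), and among the remaining 54 genes 9 were higher and 6 lower with a median of 0.0088. Adcy5, the adenylate cyclase of the striatum (chromosome 16, 35154877 to 35305738), was at 40.9, 103 and 403 CPM in KD mice and 29.3, 69.7 and 104 CPM in CD mice. The log2 fold change was 1.19 (SE 0.33, adjusted p 0.157), and 0.36 with the striatal score, of which it is itself a part, as a covariate. Adcy2, a cortical adenylate cyclase, went the other way, from 210 ± 33.2 CPM with the CD to 172 ± 16.9 CPM with the KD (SD, n = 10 each), with 5 KD mice under every CD mouse and a log2 fold change of -0.32 (SE 0.08, adjusted p 0.148). Akap5, the anchor of protein kinase A at synapses, was at 0.42 and the MAP kinase ERK1 gene Mapk3 at 0.58 (adjusted p 0.148 and 0.191), and the inhibitory G-protein gene Gnai1 at -0.28 (adjusted p 0.194). Creb1 itself was at 167 ± 23.5 CPM (SD, n = 10) and 170.3 ± 27.0 CPM (SD, n = 10), a log2 fold change of -0.07 (SE 0.08). Drd1a, the D1 dopamine receptor, had medians of 35.1 CPM on the KD and 23.04 CPM on the CD, with 4 KD mice above every CD mouse. In the exact permutation test p was 0.014 for Adcy5, 0.0413 for Drd1a, 0.0658 for the dopamine signalling protein gene Ppp1r1b and 0.422 for Creb1, and 0.165, 0.165, 0.197 and 0.507 after adjustment over the 12 genes. The receptor genes Gpr52 and Gpr83 were at 1.16 and 0.61 on the log2 scale (adjusted p 0.217 and 0.230), and at 0.28 and 0.10 with the striatal score as a covariate.

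Potassium channels leaned to the lower side. Of 58 tested, 38 were lower and 20 higher, and 16 were lower and 5 higher at an unadjusted p under 0.05, where 6.1% and 7.32% of all genes were. The median was -0.12, and it was below 0 in females (-0.19), males (-0.07), series 1 (-0.22) and series 2 (-0.08). Among the lower members, chosen here after their values were seen, were Kcnj3 and its partner Kcnj6 (GIRK2, -0.48), the silent subunits Kcns1 (-0.73) and Kcns3 (-0.59), Kcnh7 of the ERG family (-0.60), Kcnt2, a sodium-activated channel (-0.56), and Kcnn2, a small-conductance calcium-activated channel (-0.45). Their adjusted p ranged from 0.101 to 0.254. The related channel Kcnn3 was higher, at 16.9, 29.1 and 55.4 CPM against 9.63, 13.01 and 42.8 CPM (log2 fold change 0.93, adjusted p 0.151), and so was the two-pore channel Kcnk2 (0.43, adjusted p 0.217). With the striatal score as a covariate 9 of the 58 were lower and 1 higher at that p, with a median of -0.10, and without E227, E249 and E59 26 were lower and 7 higher.

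Of 46 genes of presynaptic release 31 were lower and 15 higher, with 7 higher and 6 lower at an unadjusted p under 0.05 (7.32% and 6.1% of all genes). Among the lower members, Snap25, a SNARE protein, was at 4447 ± 848 CPM with the CD and 3433 ± 542 CPM with the KD (SD, n = 10 each) (log2 fold change -0.43, adjusted p 0.157), and Syt1, the calcium sensor of fast release, was at -0.28 (adjusted p 0.197). Among the higher members were Otof, Doc2b, a calcium sensor of spontaneous release (1.43, adjusted p 0.148), Unc13c, a priming factor (1.33, adjusted p 0.147), and Rab3b, a vesicle GTPase (0.41, adjusted p 0.155). Unc13c was at 128 to 323 CPM in the KD mice with high striatal markers (E59, E61, E68 and E207). It was at 168 CPM in KD male E213, 129 CPM in CD female E249 and at most 71.8 CPM in all other mice. Adding the striatal score to the fit, 20 of the 46 were higher, 8 were higher and 6 lower at that p, and the median was -0.036 instead of -0.088. Without E227, E249 and E59 7 were higher and 18 lower at that p, with a median of -0.13.

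Glutamate and GABA genes were split. Of 32 glutamate receptors and transporters 4 were higher and 5 lower at an unadjusted p under 0.05 (7.32% and 6.1% of all genes). Grm5, a metabotropic receptor, was at 528, 752 and 942 CPM on the KD and 446, 539.6 and 931 CPM on the CD (log2 fold change 0.34, adjusted p 0.210). The ionotropic subunits Gria3 and Grin2a were at -0.30 and -0.34 (adjusted p 0.193 and 0.242). Of 23 GABA genes 3 were higher and 1 lower, with a median of 0.046.

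In the extracellular matrix, 36 genes of heparan sulfate synthesis and proteoglycans had a median of 0.038, with 3 higher and 5 lower at an unadjusted p under 0.05. Beside Ndst3, the lower ones included Sulf2, a sulfatase that trims heparan sulfate outside cells, at 31.5 to 52.4 CPM on the KD and 35.6 to 75.9 CPM on the CD (-0.51, SE 0.12, adjusted p 0.119). Of 34 collagens 25 were higher (51.2% of all genes were), by a median of 0.24. Col18a1, the parent of endostatin, was at 4.16 ± 1.99 CPM (SD, n = 10) against 2.01 ± 0.64 CPM (SD, n = 10). It had 7 KD mice above every CD mouse (0.98, adjusted p 0.148). Markers of the meninges, which are rich in collagen, moved in the same direction. Their summed level was 126 to 605 CPM on the KD (median 207.3 CPM) and 74.8 to 422 CPM on the CD (median 147 CPM), 14 of the 15 were higher, and their median was 1.18 in series 1 and -0.30 in series 2. Their part in the collagen result was not tested.

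Immune genes differed little as groups. Of 20 complement genes 15 were higher (51.2% of all genes were). Yet both proteases of the C1 complex, C1ra and C1s, were lower (-1.05 and -0.53, adjusted p 0.101 and 0.199), while the recognition subunits C1qb and C1qc were at 0.29 and 0.28 (adjusted p 0.286 and 0.276). Of 35 interferon and MHC class I genes 1 was higher and 1 lower at an unadjusted p under 0.05, and of 22 cytokines and chemokines 0 were higher and 1 lower. The interferon and MHC median was 0.279 in females and -0.099 in males. All 16 markers of homeostatic microglia were higher (51.2% of all genes were), by a median of 0.20 and at most 0.29. At an unadjusted p under 0.05, 3 were higher, where 7.32% of all genes were. Once the striatal score was in the fit 11 of the 16 were higher, 1 at that p, and the median was 0.12. Csf1r, the growth factor receptor that microglia need, was at 67.1 ± 17.1 CPM (SD, n = 10) against 55.7 ± 13.3 CPM (SD, n = 10). The summed level of these markers was 399 to 679 CPM on the KD and 393 to 568 CPM on the CD, so that the groups overlapped. Among 19 disease-associated microglial genes 3 were higher and 0 lower at that p, with a median of 0.221 in females and 0.0006 in males. Cd68, a lysosomal protein of phagocytes, was at 3.59, 4.90 and 7.38 CPM on the KD and 2.62, 3.87 and 4.99 CPM on the CD (0.46, adjusted p 0.119), with similar sizes in series 1 (0.44) and series 2 (0.49). Lpl, lipoprotein lipase, was at 0.76 (adjusted p 0.119), with 1.16 in series 1 and 0.38 in series 2. Its level was 38.7 to 54.6 CPM in the KD mice with high striatal markers (E59, E61, E68 and E207) and at most 31.0 CPM in all other mice. S100a9, a subunit of the neutrophil protein calprotectin, was at -1.54 (adjusted p 0.159) and at no more than 3.41 CPM in any mouse.

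Of the other glia, 13 of 16 astrocyte markers were higher, with a median of 0.12, and Gfap, the intermediate filament of reactive astrocytes, and Aqp4, the water channel of their end-feet, were at 0.32 and 0.38 (adjusted p 0.334 and 0.264). Agt, angiotensinogen, had the largest difference among them, at 2.74, 6.25 and 21.5 CPM on the KD and 1.01, 2.73 and 5.52 CPM on the CD (1.57, SE 0.38, adjusted p 0.130). Agt was at 1.49 with the striatal score as a covariate. Of 17 oligodendrocyte and myelin markers 15 were lower, with a median of -0.13 and 0 past an unadjusted p of 0.05 under edgeR's test. The median was 0.23 in females and -0.38 in males. Their summed level was 1824 and 2054 CPM in KD males E64 and E254 and 3265 to 5860 CPM in all other mice. Its median was 4304 CPM on the KD and 4141 CPM on the CD, so that the lower values were those of these KD males. In the fit with the striatal score all 17 were lower, 3 at that p, and the median was -0.35. Of the markers of oligodendrocyte precursors and of endothelium and pericytes, 1 of 12 and 0 of 18 were past that p.

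Of 23 clock genes 15 were lower, with 1 higher and 3 lower at an unadjusted p under 0.05 and a median of -0.078. Without E227, E249 and E59 1 was higher and 8 lower at that p, with a median of -0.12, and with the striatal score as a covariate the median was -0.026. Bhlhe40, a repressor of CLOCK, and Hlf, a clock output factor, were at -0.39 and -0.41 (adjusted p 0.285 and 0.317). Of 40 activity-induced genes 21 were higher and 19 lower, with a median of 0.023, and with the striatal score as a covariate 31 were higher with a median of 0.13. Of these genes Jun was at 0.48 (adjusted p 0.227) and Ier5 at -0.54 (adjusted p 0.247).

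Several other list medians moved when the striatal score entered the fit. The sign turned for glycolysis (to 0.036), oxidative phosphorylation (0.020), cholesterol synthesis (0.025), fatty acid synthesis (-0.035), cAMP signalling (-0.0024), interferon and MHC genes (-0.024), disease-associated microglia (-0.00047), oligodendrocyte precursors (-0.046) and endothelium (-0.012), and for upper-layer (0.066), deep-layer (-0.063) and hippocampal markers (0.12). Medians of the same sign that moved by over 1.5 times were those of GABA genes (0.021), glutamate genes (-0.026), complement (0.091), ribosomal proteins (0.14), chaperones (0.034), heparan sulfate genes (0.074) and cytokines (-0.068). The fit without E227, E249 and E59 moved lists too. At an unadjusted p under 0.05 it gave 10 GABA genes higher and 3 lower, and 13 collagens higher and 1 lower. Of the meningeal markers 10 were higher and 0 lower at that p. Of 36 glycolysis genes 9 were higher (median -0.073), and of 35 interferon and MHC genes 27 were (median 0.199).

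**Figure D4:**
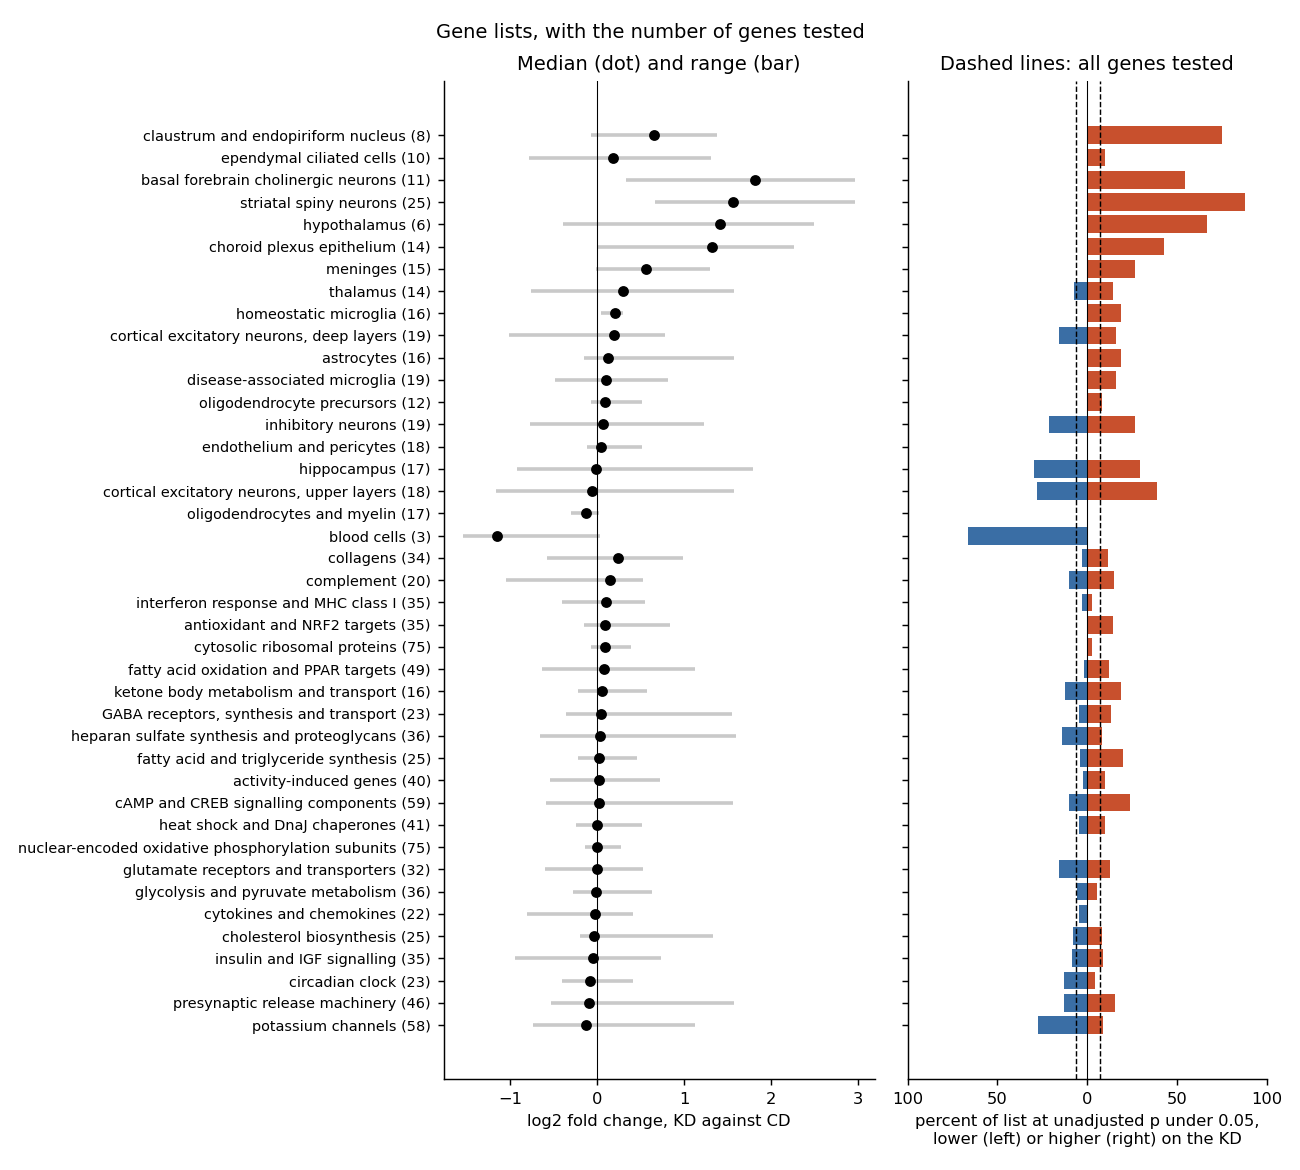
For each gene list (number of genes tested in brackets), the left panel gives the median (dot) and the range (grey bar) of the log2 fold changes between KD and CD, and the right panel the percent of its genes higher (red) and lower (blue) at an unadjusted p under 0.05. Dashed lines mark the 7.32% and 6.1% of all genes tested. Among the lists far above the first of these are the markers of striatum, claustrum, hypothalamus, basal forebrain, choroid plexus and upper cortical layers. The claustrum list was written after values were seen.

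Markers of cortical neurons went in both directions within each layer group. Of 18 upper-layer markers 7 were higher and 5 lower at an unadjusted p under 0.05, and of 19 deep-layer markers 3 and 3. Of all genes, 7.32% were higher and 6.1% lower at that p. On the lower side were Tbr1, a factor of corticothalamic neurons (-0.61, adjusted p 0.165), Lamp5 (-0.83), Mef2c, an activity-dependent factor (-0.52), and Etv1, of layer 5 (-0.42). On the higher side were Otof, Calb1, the calcium buffer calbindin (0.37), Cartpt, a neuropeptide gene (1.02), and Bcl11b, a factor of both subcerebral and striatal neurons (0.53). Of 19 inhibitory neuron markers 11 were higher and 8 lower, 5 and 4 of them at an unadjusted p under 0.05, and the median was 0.072. Named after their values were seen, the 4 lower ones were neuropeptide genes and the calcium buffer parvalbumin (Npy -0.49, Vip -0.68, Cck -0.67 and Pvalb -0.77, adjusted p from 0.159 to 0.299), and among the higher ones were Nos1 and Reln, the extracellular guide reelin (0.69, adjusted p 0.174). Of 17 hippocampal markers 5 were higher and 5 lower at an unadjusted p under 0.05, with a median of -0.010. Their summed level was at 405 to 439 CPM in the KD females E61, E68 and E207 and 442 CPM in CD female E249, and at 611 to 1050 CPM in the other 16 mice. Dkk3, a secreted modulator of Wnt signalling in cortex and hippocampus, was at 340.0 ± 181 CPM (SD, n = 10) and 547 ± 150.3 CPM (SD, n = 10), a log2 fold change of -0.92 (adjusted p 0.172).

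Markers of other regions differed unequally. All 25 tested striatal markers were higher on the KD, 22 at an unadjusted p under 0.05, with a median of 1.56 that was 2.46 in females and 1.08 in males, and 2.44 in series 1 and 0.91 in series 2. With their own score as a covariate the median was -0.029. Yet the median of their summed level was 669 CPM in KD mice and 720 CPM in CD mice, and the high values were those of the 4 KD mice named at the outset. Penk, of indirect-pathway neurons, had medians of 32.3 CPM on the KD and 24.8 CPM on the CD and highest values of 409 and 119 CPM. The D2 receptor gene Drd2 and the adenosine receptor gene Adora2a reached 24.0 and 72.3 CPM in KD male E59, and Gpr6, an orphan receptor of the same neurons, was at 2.50 on the log2 scale (adjusted p 0.148). Of 11 tested basal forebrain cholinergic markers, all higher, 6 were past that p (median 1.81), and of 6 hypothalamic markers 4 (median 1.41), Trh, the thyrotropin-releasing hormone gene, at 2.49 with 4 KD mice above every CD mouse. In the fit with that score 4 of the 11 cholinergic markers were higher, 0 were higher and 3 lower at that p, and their median was -0.52, while the hypothalamic median was 0.16. Of 14 thalamic markers 12 were higher, 2 higher and 1 lower at that p, with a median of 0.30 that was 0.062 with the score. Of 3 blood cell markers 2 were lower at that p, while 4 further members of that list were at 0 in every mouse. The 14 choroid plexus markers were all higher, with a median of 1.32 that was 2.41 in series 1 and -0.017 in series 2. Given the striatal score as a covariate, 5 of the 14 were higher and the median was -0.017, and without E227, E249 and E59 9 were, with a median of 0.31. Their summed level was 4077 CPM in KD male E59 and 234 to 552 CPM in the other 19 mice, and transthyretin (Ttr) was at 2187 CPM in E59 against at most 41.2 CPM in the CD mice. Kl, the klotho gene of choroid plexus and kidney, was at 63.5 CPM in E59 and at medians of 7.78 CPM on the KD and 2.92 CPM on the CD. Whether these markers follow the diet or the piece of tissue that was taken was not tested. Beside them, the 15 higher and 15 lower genes of smallest p kept their direction with the striatal score as a covariate, with adjusted p of at least 0.320. Their choice by p in the same mice favours this, and the part of the tissue piece in them was not tested either.

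**Figure D5:**
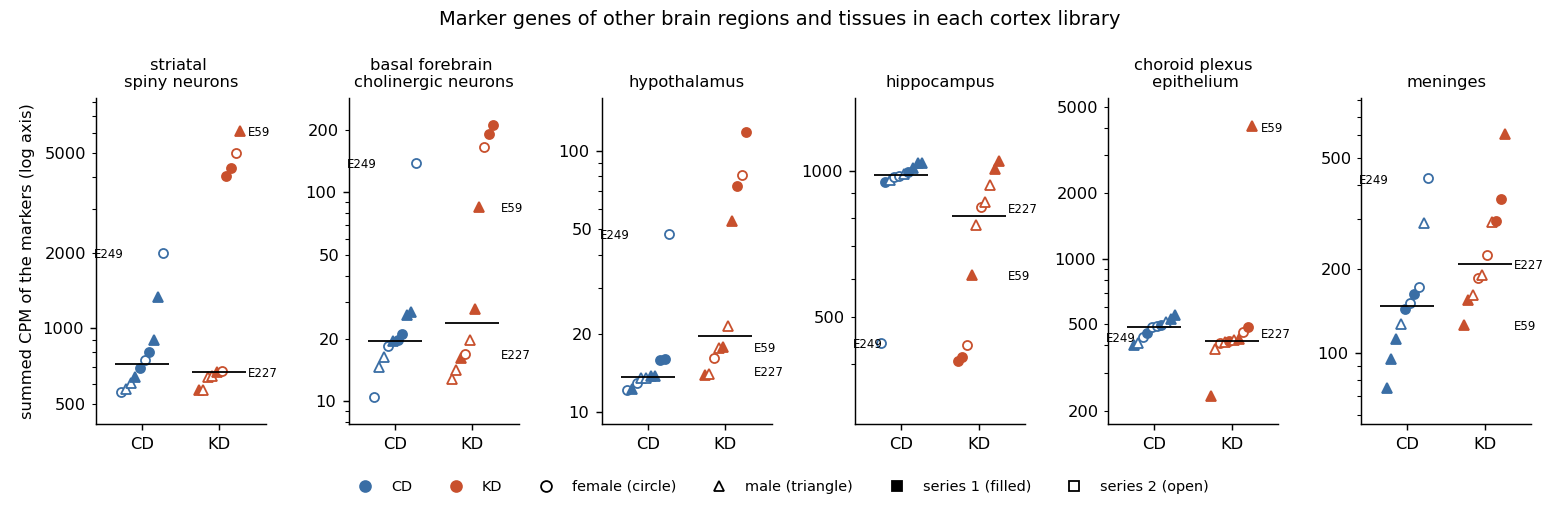
Summed CPM of marker genes, on log axes, for 6 neighbouring regions and tissues in each CD (blue) and KD (red) cortex library, with symbols as in the plot of genes by mouse. KD females E61, E68 and E207 and KD male E59 carry the high striatal values, CD female E249 lies toward them in the cholinergic, hypothalamic and hippocampal panels, and E59 alone is high in choroid plexus.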

How the data were processed

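RNA-seq of frozen cortex from 20 mice was analysed, 1 library per mouse. Per the study's methods, the authors checked 50-bp read pairs with FASTQC, aligned them to mm10 with STAR and counted reads per gene with HTSeq within STAR. They deposited these raw counts as 1 table per library. Versions, gene annotation and strand setting are not given in the sources used here, so that reads of overlapping or antisense genes may be shared. Total counts were 12207161 to 29109990 per library, and intervals are not given because precision was taken from the spread between mice.

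Diet and sex came from the library titles, and series from the library numbers. Counts of 23413 gene names were filtered with filterByExpr to 15660, scaled by upper quartile and fitted in edgeR 4.0.16 (R 4.3.3) with terms for series, sex and diet. The robust quasi-likelihood test was used with Benjamini-Hochberg adjustment, at an FDR of 0.1 and a 1.5-fold change. Adjusted p-values without another test named beside them are from this fit. Levels are CPM, counts scaled to the library total. The study corrected unwanted variation with RUVg, whose factors and control genes are not given. RUVg with 1 or 2 factors, using all but the 5000 genes of smallest p as controls, was therefore an alternative, as were DESeq2 1.42.0, edgeR's likelihood ratio test, other scalings, filters and terms, each sex and series alone, and each mouse left out. The RUVg fits had their factors in place of the series term, so that they differ from the main fit in both respects. For 12 genes diet was permuted within the 4 combinations of sex and series, on log2 CPM with a prior count of 2. The striatal score was the mean z-score of the striatal marker list. It takes up part of any diet effect that moves with it.

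Genes named were the 15 higher and 15 lower of smallest p at a mean of at least 1 CPM, the 2 members of smallest p of each pathway list and the 1 of each marker list, and the 12 permuted genes with Gpr52 and Gpr83. Further list members were named after their values were seen, as was the set of 3 mice left out together. The comparison, the 22 pathway lists and 17 marker lists were chosen with earlier results of these data known. Simulated counts for the 15660 genes were fitted too, with 200 genes changed and calls taken by the FDR without the fold limit. The fit recovered 58% at 1.5-fold (9 unchanged genes called), 84.5% at 2-fold (19 called) and 96.5% at 3-fold (14 called). With none changed it called 0. Each gene was drawn independently, without the differences between tissue pieces that many genes share in the real libraries. Power and error in the real libraries were therefore not tested. Gene positions are from GENCODE (GRCm38) and upstream sequences from RefSeq (GRCm38.p6), which matched 12034 tested genes. Some members of the lists and some of the permuted genes are not reported here, although the counts, medians and adjusted p-values include them.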

Additional observations from a re-analysis of the deposited data

Results flagged for a closer look

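Of 268 groups of 10 mice examined for a mouse apart from the rest, 28 had one, where independent groups would give about 13.4 by chance. These groups were the same KD and CD mice read over many genes and marker sums. They are not independent, and the comparison does not measure an excess over chance. The measure was the gap between the most extreme mouse and its neighbour divided by the whole range (Dixon's ratio). Most were CD female E249, the CD mouse with the highest striatal marker level, in its comparison with the other 9 CD mice.

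E249 was the lowest CD mouse in markers of cortical neurons, with gaps of 0.819 in Dkk3, 0.571 in Tbr1, 0.61 in Lamp5, 0.685 in Pvalb, 0.622 in Vip and 0.49 in Cck, and of 0.891 in the summed hippocampal markers. It was lowest in Mkx (0.577), Bhlhe40 (0.58), Ier5 (0.717), Kcns1 (0.695), Kcns3 (0.53) and Grin2a (0.506) too. It was the highest CD mouse in Gpx3 (0.523), Kcnn3 (0.588), Gpr52 (0.573) and Cartpt (0.639), and in the summed markers of oligodendrocyte precursors (0.528), basal forebrain cholinergic neurons (0.638) and hypothalamus (0.8).

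KD male E59 was the highest KD mouse in the summed choroid plexus markers (0.745), Kl (0.704) and Ttr (0.524). KD male E64 was highest in Jun (0.48) and Mapk3 (0.514). KD male E213 was the lowest KD mouse in Sec14l3 (0.545), and CD female E265 the lowest CD mouse in Csf1r (0.511) and Rab3b (0.628). What sets these mice apart was not tested.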

How the results depend on the processing

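The number of genes past FDR 0.1 and 1.5-fold, 1 higher and 0 lower in the quasi-likelihood fit of all mice, differed between fits. It stayed so with TMM scaling, with DESeq2's size factors, without the series term and with no fold limit. In females alone it was 0 higher and 1 lower (Ndst3). It was 0 in both directions without a low-count filter, without a sex term, with the 4 combinations of sex and series as 1 block, with the striatal score as a covariate, in series 2 alone, in males alone and at an FDR of 0.05. It was 10 higher and 3 lower with at least 10 counts in every library, 120 and 27 under RUVg with 1 factor, 193 and 94 with 2 factors, 185 and 79 under the likelihood ratio test, 196 and 102 under DESeq2, and 145 and 63 in series 1 alone. In alternatives added after seeing the data it was 186 and 82 at an FDR of 0.2, and 511 and 268 without E227, E249 and E59. With 1 mouse left out it ranged from 0 to 404 higher and from 0 to 144 lower. It was 404 and 144 without CD E249, 157 and 83 without KD E227, 47 and 18 without KD E53, 31 and 11 without KD E213, 23 and 9 without KD E256, 18 and 10 without CD E251, 6 and 5 without CD E264 and 1 and 1 without KD E254. Without CD E58, E62, E66, E228 or E265 or KD E61, E64, E68 or E207 it was 0 in both directions. The cause was not tested.

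Genes higher at an unadjusted p under 0.05 numbered 138 in series 2, 668 in females, 479 in males and 1772 without the 3 mice, and 848 to 1618 with 1 mouse left out. Lower genes numbered 70, 558, 237 and 1453 in the same fits, 577 with the striatal score and 627 to 1273 with 1 mouse left out, the lowest without KD E61. Signs turned for genes near 0. Bdh1 was at -0.0892 in series 1, -0.0022 in males and -0.0754 without the 3 mice, and from -0.0529 to 0.0625 with 1 mouse left out. The log2 fold change of Oxct1 was 0.00241 with at least 10 counts, 0.00273 without the sex term, 0.0167 with the striatal score, 0.000572 and 0.000337 under RUVg with 1 and 2 factors, 0.0450 in series 1, 0.0348 in males and 0.0145 without the 3 mice, and from -0.0302 to 0.0234 with 1 mouse left out. Pdk4 was at -0.0438 in males and Txnip at -0.13 in series 2. With the striatal score, which includes them, Ppp1r1b was at -0.0607, Penk at -0.0257, Drd2 at -0.41 and Adora2a at -0.49. Ttr was at -0.57 in females and -0.69 without the 3 mice, and from -0.23 (without KD E59) to 2.53 with 1 mouse left out. The permuted genes kept their side of the threshold with a prior count of 0.5, as did the interaction counts with TMM. No paired analysis was possible because the animal numbers are not shared between the diets.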

Other observations

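Markers of the claustrum and endopiriform nucleus, a list written after values were seen, were higher on the KD in 7 of 8 tested genes, and by a median of 0.65 on the log2 scale (females 0.42, males 0.82, series 1 0.72 and series 2 0.56). At an unadjusted p under 0.05 under edgeR's test, 6 of them were higher, where 7.32% of all genes were. A choice of members with values known favours such counts, and they are a description. Their summed level was 544 to 915 CPM on the KD (median 708 CPM) and 489 to 684 CPM on the CD (median 558 CPM), so that the diets overlapped. KD male E254, which was not among the mice with high striatal markers, had the highest value. Of 10 ependymal markers, chosen in the same way, 1 was higher at that p and the median was 0.18.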
